A study of Mus musculus with 6 samples.

Results

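The keratin genes were measured on 6 arrays, as the 49 genes whose platform symbol is Krt followed by a number and at most 1 letter, out of 17778 genes with a platform symbol. Keratin-associated proteins were not members. Where a gene had several probes, which was so for Krt78 and Krt82, the one brightest on average across the 6 arrays stood for the gene. The study compared tissues of female BALB/c mice that received no treatment (mock) with tissues of mice dosed orally with SHT, the herbal decoction Sheng-Hua-Tang, at 200 mg/kg for 7 days. The labels name brain, ovary and uterus, and each combination of tissue and treatment had 1 array. How old the mice were, and how many stand behind each array, is not stated in the labels.

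Keratins are the intermediate filament proteins of epithelial cells. A filament is built from pairs of an acidic type I keratin and a basic type II keratin, so the genes tend to be used in partners. Krt8 with Krt18 is the pair of simple epithelia such as those lining glands and ducts, Krt5 with Krt14 is the pair of the basal layer of stratified epithelia, and the layers above it switch to Krt1 with Krt10 in epidermis or Krt4 with Krt13 in moist squamous mucosa. Krt6a, Krt6b, Krt16 and Krt17 rise in injured or rapidly dividing squamous epithelium, and a further set builds hair and the root sheath around it. In the female tract, uterine and ovarian surface epithelia are simple, while the vagina and the outer cervix are stratified squamous.

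Promoter windows are shown for 5 keratins that stand for the patterns described below: Krt5 and Krt14 as the basal pair, Krt7 and Krt8 from simple epithelium, and Krt76 as the suprabasal keratin that differed most between the mock ovary and SHT uterus arrays. The windows are from RefSeq on GRCm38.p6 and run from 250 bases before to 50 bases after the gene's start, 5′ to 3′. Capitals mark TATAAA, the core of a TATA box, and GGGCGG, the core of a GC box, on either strand. The Krt5 window lies at chr15:101712856-101713155, that of Krt14 at chr11:100205981-100206280, that of Krt8 at chr15:102004293-102004592 and that of Krt76 at chr15:101892871-101893170, all on the minus strand. The Krt7 window lies at chr15:101412153-101412452 on the plus strand.
Krt5: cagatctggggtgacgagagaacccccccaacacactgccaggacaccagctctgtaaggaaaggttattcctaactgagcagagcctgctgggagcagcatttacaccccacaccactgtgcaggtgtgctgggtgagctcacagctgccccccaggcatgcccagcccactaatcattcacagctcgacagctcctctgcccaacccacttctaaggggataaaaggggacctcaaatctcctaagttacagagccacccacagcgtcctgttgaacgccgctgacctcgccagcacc
Krt14: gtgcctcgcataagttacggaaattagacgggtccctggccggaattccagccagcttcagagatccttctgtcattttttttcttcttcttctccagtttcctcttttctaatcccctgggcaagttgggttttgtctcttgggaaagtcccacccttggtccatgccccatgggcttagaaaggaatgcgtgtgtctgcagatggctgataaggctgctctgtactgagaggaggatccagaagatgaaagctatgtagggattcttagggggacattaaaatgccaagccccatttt
Krt7: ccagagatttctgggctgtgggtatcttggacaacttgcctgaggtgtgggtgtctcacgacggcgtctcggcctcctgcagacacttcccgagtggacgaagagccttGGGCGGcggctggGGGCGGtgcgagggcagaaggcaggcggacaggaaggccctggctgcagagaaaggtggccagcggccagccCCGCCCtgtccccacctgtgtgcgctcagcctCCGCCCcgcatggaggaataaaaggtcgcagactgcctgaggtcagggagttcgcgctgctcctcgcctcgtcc
Krt8: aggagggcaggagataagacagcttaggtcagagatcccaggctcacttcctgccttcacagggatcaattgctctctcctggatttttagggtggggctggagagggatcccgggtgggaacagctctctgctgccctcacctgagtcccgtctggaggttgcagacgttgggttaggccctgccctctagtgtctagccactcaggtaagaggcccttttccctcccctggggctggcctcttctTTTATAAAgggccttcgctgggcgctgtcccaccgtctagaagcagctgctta
Krt76: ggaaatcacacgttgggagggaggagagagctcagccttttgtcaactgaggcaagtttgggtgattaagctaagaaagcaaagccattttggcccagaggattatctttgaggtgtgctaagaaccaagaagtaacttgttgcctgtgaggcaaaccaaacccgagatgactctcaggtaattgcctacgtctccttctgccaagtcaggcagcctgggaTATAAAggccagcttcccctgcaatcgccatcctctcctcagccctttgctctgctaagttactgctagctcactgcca

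Of the 49 keratins, 34 had such a window, which leaves out all 4 stress keratins. A gene was counted where any of its windows held the motif. TATAAA was present on either strand in 18 of the 34, against 15.7% of all 27025 genes with a window. It was in 12 of the 16 hair and root sheath keratins with a window and in 6 of the other 18. Neither basal window held it. GGGCGG was present in 2 of the 34, Krt7 and Krt75, against 38.2% of all genes with a window. TGANTCA, the site of AP-1, was present only in windows of Krt13, against 8.97% of all genes with a window. In the Krt8 window the TATAAA matches on opposite strands overlap. The first of them begins at position -3 from the gene's start, and the match of Krt76 at -29.

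Defining genes of the labelled tissues went against 4 of the 6 labels, so every array is named here as the array labelled so. Of 9 ovarian markers, 9 were above background on the arrays labelled SHT brain and mock uterus and 1 on each of the others. Of 5 neuronal markers, 5 were above background on each of mock brain and SHT ovary and 0 on the array labelled SHT brain. On mock ovary and SHT uterus 3 were, and on mock uterus 1. Of 8 squamous markers, all 8 passed on mock ovary and on SHT uterus, with summed intensities of 173780 and 116760, against 0 to 3 and at most 4047 elsewhere. Of 9 uterine markers, between 4 and 7 were above background on each array, with summed intensities of 33594 on mock ovary, 38602 on SHT uterus and 5189 to 15205 on the other 4. No array had a replicate, so no value within a tissue has an SD or a test. In such bulk samples, fewer cells of a type and less RNA per cell cannot be told apart. Whether the squamous cells account for the keratin levels was not tested.

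More keratins were above background on mock ovary and SHT uterus than on the other 4 arrays, by a margin that depended on the limit. A keratin was taken as above background where its intensity exceeded the 95th percentile of 528 olfactory receptor genes on that array, a limit between 275 and 542. It was exceeded by 23 keratins on the array labelled mock ovary and by 21 on that labelled SHT uterus. The array labelled SHT brain had 10, that labelled SHT ovary 9, that labelled mock uterus 8 and that labelled mock brain 5. With the limit at the 90th percentile, mock ovary and SHT uterus had 26 each, and the others had 15 (mock brain and SHT ovary), 18 (mock uterus) and 19 (SHT brain). Over all genes the share above the limit varied little and in another order. It was 44.1% on the array labelled mock brain, 54.3% on SHT brain, 51.1% on mock ovary, 47.9% on SHT ovary, 55.2% on mock uterus and 55.1% on SHT uterus. As shares of the 49 keratins, the counts were 46.9% on mock ovary and 42.9% on SHT uterus, both below the share over all genes, and 10.2% to 20.4% on the other 4. On no array did keratins pass the limit more often than genes at large. In all, 27 keratins passed the limit somewhere, 3 of them (Krt7, Krt10 and Krt14) on all 6 arrays, and 22 passed it nowhere. Of the 27, the highest reading was on the array labelled mock ovary for 17.

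**Figure D1:**
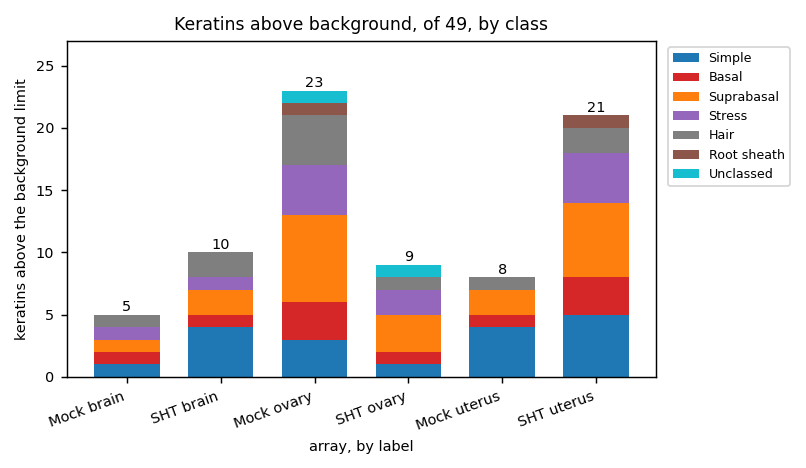
Number of keratins above the background limit (y axis, of 49) on each array by label (x axis), stacked by keratin class. Mock ovary holds 23 and SHT uterus 21, and the other 4 hold between 5 and 10; all basal and stress keratins are above the limit on the first 2.

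All 3 basal keratins were high on mock ovary and SHT uterus and low on the other 4. Krt5, the type II keratin of dividing basal cells, read 36716 on mock ovary and 29948 on SHT uterus. It read 250 on mock brain, 104 on SHT brain, 198 on SHT ovary and 115 on mock uterus, all within background. Krt14, its type I partner, read 65580 on mock ovary, at the top of the intensity scale, and 64964 on SHT uterus, just under it. It read 939 on mock brain, 600 on SHT brain, 832 on SHT ovary and 639 on mock uterus, which is above the limit on each. Krt15, a type I keratin of basal and hair bulge cells, read 16387 on mock ovary and 28691 on SHT uterus, and 22.7, 109, 23.5 and 84.0 on mock brain, SHT brain, SHT ovary and mock uterus. Unlike Krt5, it was brighter on the array labelled SHT uterus.

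The 4 stress keratins followed the basal ones. Krt6a, a type II keratin of wounded and hyperproliferative epithelium, read 49602 on mock ovary and 49141 on SHT uterus, and 678, 254, 537 and 229 on mock brain, SHT brain, SHT ovary and mock uterus. Krt6b, its close paralog, read 53780 and 43871 on the first 2, and 140, 462, 117 and 80.0 on the others in the same order. The probes thus differed on the dim arrays, where Krt6a passed the limit on mock brain and SHT ovary and Krt6b on SHT brain. Probe sequences were not used here, so signal shared between such close copies cannot be told apart. Krt16, a type I partner of the Krt6 keratins, read 62254 on mock ovary and 39035 on SHT uterus, and 349, 196, 276 and 155 on mock brain, SHT brain, SHT ovary and mock uterus. Krt17, found also in hair follicle and glands, read 35042 and 21081 on these arrays, and 411, 238, 405 and 263 on the other 4 in that order.

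Suprabasal keratins were less uniform: 8 of 12 measured passed the limit on some array, 7 of them on mock ovary and 6 on SHT uterus. Krt10, the type I keratin of the epidermal layers above the basal one, read 65580 on mock ovary, at the top of the scale, and 57851 on SHT uterus. On mock brain, SHT brain, SHT ovary and mock uterus it read 3090, 2367, 3866 and 2175, so it was above background on every array. Krt1, its type II partner, read 25957 on mock ovary but 1813 on SHT uterus, and 95.7, 25.2, 69.3 and 30.5 on the other 4 in the same order. Krt13, the type I keratin of squamous mucosa, read 60349 on mock ovary and 37781 on SHT uterus, and 511, 436, 434 and 364 on mock brain, SHT brain, SHT ovary and mock uterus. Krt4, the type II partner of Krt13, ran the other way between the bright arrays, with 2268 on mock ovary and 6167 on SHT uterus, and 61.1, 36.0, 51.6 and 30.2 on the others in that order.

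The remaining suprabasal keratins above the limit favoured the array labelled mock ovary, except Krt12. Krt76, a type II keratin of the oral mucosa, read 16076 on mock ovary, 198 on SHT uterus, and 28.4, 28.3, 28.5 and 31.2 on mock brain, SHT brain, SHT ovary and mock uterus. Krt78 read 10853 on mock ovary, 413 on SHT uterus, and 105, 80.2, 94.9 and 98.4 on the others in that order. Its second probe read 6150 on mock ovary and 247 on SHT uterus, the latter under that array's limit of 319. Krt9, the keratin of palm and sole epidermis, read 3655 on mock ovary, 499 on SHT ovary, 436 on mock brain, 171 on SHT uterus, 117 on SHT brain and 115 on mock uterus. Krt12, the corneal keratin, passed the limit on SHT uterus alone, at 381, against 207 on SHT brain, 155 on mock ovary, 24.7 on mock uterus, 19.3 on SHT ovary and 16.3 on mock brain. Krt2, Krt24, Krt77 and Krt79 passed the limit on no array, and the highest reading among them was 424 for Krt2 on mock brain.

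Simple keratins had another distribution, led by the array labelled SHT brain for 3 of the 5 that passed the limit. Krt7, a type II keratin of ducts and glands, read 31008 on SHT brain, 26714 on SHT uterus, 18333 on mock ovary, 2726 on mock uterus, 746 on mock brain and 704 on SHT ovary. Krt19, a type I keratin of simple epithelium with no type II partner of its own, read 17260 on SHT brain, 13041 on SHT uterus, 5757 on mock uterus and 3922 on mock ovary, and 143 and 119 on mock brain and SHT ovary. Krt8, the type II keratin of simple epithelium, read 16008 on SHT brain, 2523 on mock uterus and 979 on SHT uterus, and was listed below 0 on mock brain, mock ovary and SHT ovary. Krt8 was thus listed below 0 on the array labelled mock ovary, where Krt7 and Krt19 passed the limit. Krt18, the type I partner of Krt8, was within background on all 6 arrays, with a highest reading of 101, on mock brain. The Krt18 probe therefore did not follow that of Krt8, and what it binds was not tested.

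Krt20, a type I keratin of intestinal and urothelial cells, read 5146 on SHT uterus, 1122 on SHT brain and 871 on mock uterus, and 239, 104 and 89.8 on mock ovary, SHT ovary and mock brain. Krt23, a type I keratin, was placed in the simple class but matched the basal keratins in where it was bright, with 4475 on mock ovary and 4008 on SHT uterus. It read 41.8 and 38.2 on SHT brain and mock uterus, and 2.03 and 1.35 on mock brain and SHT ovary. Krt80 passed the limit on no array, with a highest reading of 239.

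Hair and root sheath keratins were mostly within background on every array: 9 of 13 hair keratins and 7 of 8 root sheath keratins never passed the limit. Krt71, a type II keratin of the inner root sheath, read 2160 on mock ovary, 521 on SHT uterus, 458 on mock brain, 321 on SHT ovary, 251 on mock uterus and 241 on SHT brain. Krt84, a type II hair and tongue keratin, read 1950 on SHT brain and 882 on mock ovary, and between 210 and 314 elsewhere. Krt81, a hair cortex keratin, read 781 on mock ovary and between 256 and 498 elsewhere. Krt86, another hair keratin, read 756 on mock brain and 611 on SHT ovary, with 255 to 434 elsewhere, so its brightest arrays were not those of the squamous keratins. Krt34 passed the limit on mock ovary alone, at 326. Of 7 hair markers, 2 were above background on mock ovary and 3 on SHT uterus, and 0 on each other array. Over all genes the shares on those 2 arrays were 51.1% and 55.1%. Padi3 read 366 on mock ovary and 441 on SHT uterus, S100a3 591 and 406, and Tchh passed on SHT uterus alone, at 420. Hoxc13 and Foxn1, transcription factors of the hair shaft, were above background on none, nor were Lef1 and Msx2. Among 3 keratin-associated proteins of hair, Krtap13 read 1173 on mock ovary and at most 173 elsewhere.

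The 2 keratins outside these classes were Krt42 and Krt222. Krt42, a mouse keratin close to Krt17, read 325 on mock ovary, just over the limit of 310, and 126 to 285 elsewhere. Krt222, a keratin-like gene, was brightest on the same arrays as Krt86, with a wider gap to the rest. It read 473 on mock brain and 531 on SHT ovary, the 2 arrays with all neuronal markers above background, and between 38.7 and 42.9 on the other 4. The first of these readings lay under the limit of its array, 542, and the second over its limit of 403.

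**Figure D2:**
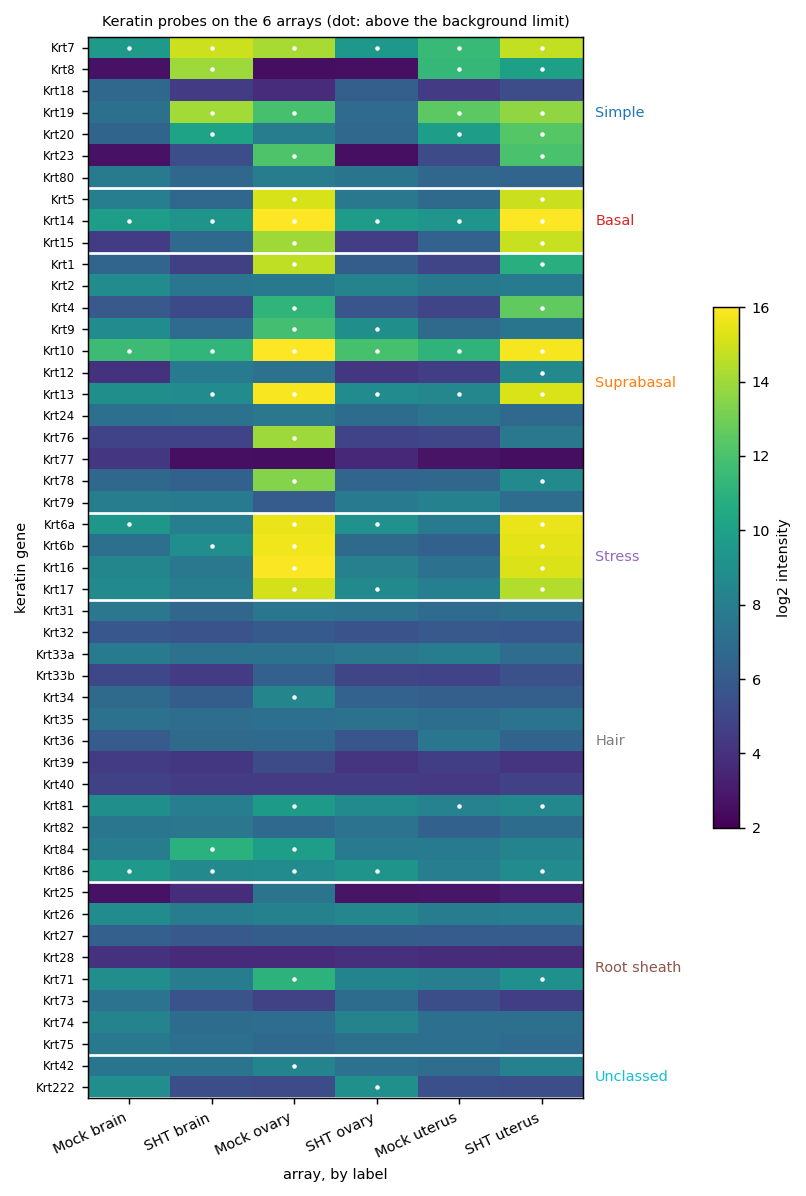
Level of each of the 49 keratins (rows, grouped by class) on each array by label (columns), as log2 intensity in colour, with a white dot where the keratin is above the background limit of that array. Basal and stress keratins are bright in the columns mock ovary and SHT uterus, and Krt7, Krt8 and Krt19 are brightest in the column SHT brain; colours are compared along a row, since probes differ in brightness.

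The first comparison set the array labelled SHT brain against that labelled mock brain. Of 5 neuronal markers, 0 were above background on the first and 5 on the second, and of 9 ovarian markers, 9 and 1. Whether differences in this pair follow the treatment or the tissue content was not tested. On the array labelled SHT brain 4 of the 7 simple keratins, Krt7, Krt8, Krt19 and Krt20, were called higher than on that labelled mock brain. The other 3 were under the level used for calls. Of the 3 basal keratins only Krt14 was above that level, and it was not called. Krt14, at 939 and 600, and Krt10, at 3090 and 2367, were above background on both arrays. A gene was called where its mean log2 intensity over the pair exceeded the level floor, which is the median of those pair means across the probes of the array, and it differed by at least 2-fold from the pair's median gene. Of 49 keratins, 19 were above the floor, 6 were called higher and 3 lower, or 31.6% and 15.8% of the 19, against 22.9% higher and 23.3% lower among 10749 genes. Krt7 was 42.6-fold higher, from 746 to 31008. Krt19 was at least 32.7-fold higher, where "at least" means that the dimmer array read within background and its limit took the place of its value. Krt20 was at least 2.12-fold and Krt84 at least 3.69-fold higher. Krt8 went from below 0 to 16008, for which no fold is given. Krt6b, at 140 and 462, was called higher, but its brighter reading lay under the mock brain limit of 542, so no fold is given. Krt6a, at 678 and 254, was called lower, at least 2.40-fold. Krt2 and Krt9, also called lower, read within background on both arrays.

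In the pair labelled ovary the keratins were lower on the SHT array without exception among those called. Of 8 squamous markers, 8 were above background on mock ovary and 0 on SHT ovary, and of 5 neuronal markers, 3 and 5. Treatment and tissue content differ together in this pair, and which of them the differences follow was not tested. Of 23 keratins above the floor, 20 were called lower and 0 higher, or 87.0% and 0.0%, against 23.6% lower and 23.0% higher among 10696 genes. Called lower were all 3 basal, all 4 stress and 7 of 12 suprabasal keratins. Krt16 was at least 170-fold lower and Krt13 153-fold. Krt6a, at 102-fold, differed less than Krt6b, at 147-fold or more. Krt17 was 95.3-fold lower and Krt14 at least 86.8-fold, against a reading at the top of the scale on mock ovary. Among simple keratins, Krt7 was 28.6-fold and Krt19 at least 10.7-fold lower. Over all 49 keratins the median log2 difference was -1.28, against -0.01 over all genes, whatever their level. Krt23, at least 12.2-fold lower, was under the floor, and Krt86 was not called, with 426 on mock and 611 on SHT.

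In the pair labelled uterus the direction turned. Of 8 squamous markers, 1 was above background on mock uterus and 8 on SHT uterus, and of 9 ovarian markers, 9 and 1. Here too treatment and tissue content differ together, and which of them the differences follow was not tested. Of 21 keratins above the floor, 16 were called higher on the SHT array and 1 lower, or 76.2% and 4.76%, against 12.6% higher and 9.04% lower among 10767 genes. The stress keratins Krt6a, Krt6b and Krt16 were higher by 162-fold, 145-fold and 129-fold or more. Among mucosal and basal keratins, Krt13 was 101-fold and Krt14 99.2-fold higher, and Krt15 94.8-fold or more, while Krt5 went from 115, within background, to 29948. The Krt14 reading on SHT uterus was just under the top of the scale, so its fold may be understated. Krt10 was 25.9-fold, Krt4 at least 20.4-fold and Krt1 at least 5.99-fold higher. The simple keratins did not all move in 1 direction. Krt23 was at least 13.3-fold higher, from 38.2 to 4008. Krt7 was 9.56-fold, Krt20 5.76-fold and Krt19 2.21-fold higher, and Krt8, the exception, was 2.64-fold lower, from 2523 to 979. Over all 49 keratins the median log2 difference was 0.53, against -0.05 over all genes. Keratins called lower in the pair labelled ovary and higher in the pair labelled uterus numbered 14, and none was called in the same direction in all 3 pairs.

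**Figure D3:**
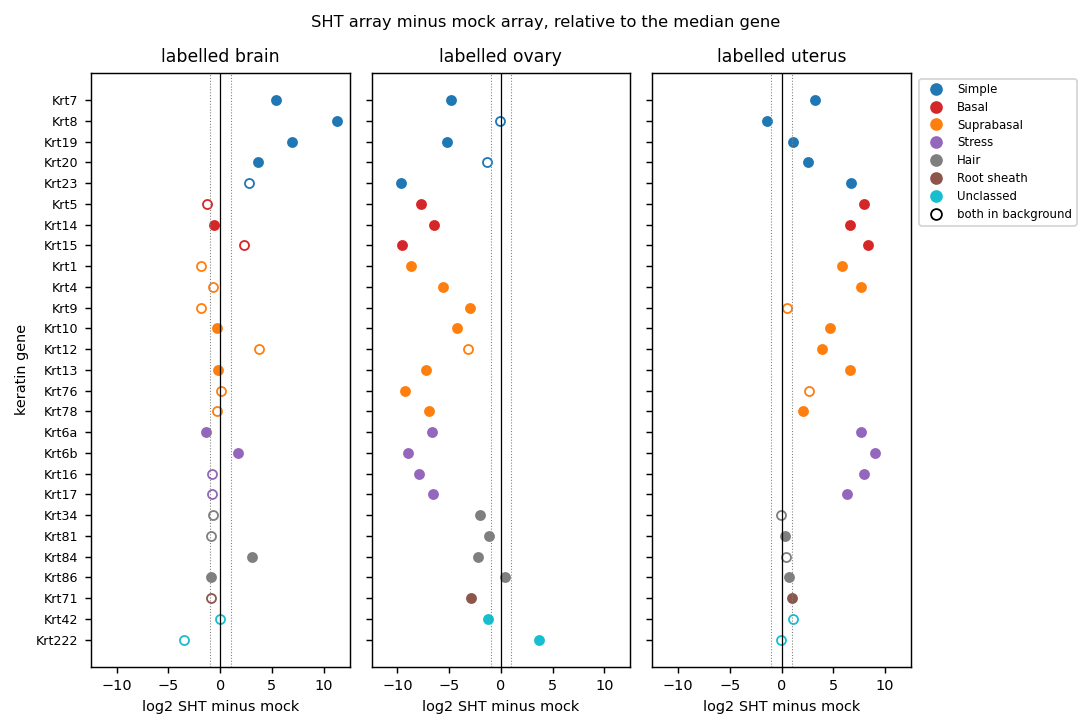
Log2 difference, SHT minus mock and relative to the median gene, for the 27 keratins above background on any array (rows, coloured by class), in the pairs labelled brain, ovary and uterus. Open circles mark keratins within background on both arrays of the pair, and dotted lines mark 2-fold; points use the readings themselves, so those of dim probes exceed the lower bounds in the text. Basal and stress keratins lie far left in ovary and far right in uterus.

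Averaged over the 3 labelled tissues, no keratin was called between SHT and mock, given the spread of the SHT difference over those tissues. With labelled tissue as a block, limma called 0 of 21 keratins tested and 0 of 10764 genes (0.0%) at an adjusted p under 0.05, and 0 keratins and 4 genes at an unadjusted p under 0.05. The keratin with the smallest p was Krt9, at -1.40 ± 0.88 on the log2 scale (SE, 3 arrays against 3, limma adjusted p = 1), lower in 2 of 3 tissues. Krt20 averaged 1.67 ± 1.16 (SE, limma adjusted p = 1), higher in 2 of 3. The test took the labels as they stand, and marker genes went against most of those labels. Its lack of calls is therefore not read as a lack of difference with SHT.

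The 2 arrays with the most keratins above background, those labelled mock ovary and SHT uterus, shared 18 of them, and between these arrays 12 keratins were called. The arrays were chosen on the keratins, so their difference is a description. The median gene was higher by 0.45 on the log2 scale on the array labelled SHT uterus, and differences are relative to it. Of 26 keratins above the floor, 2 were called higher on SHT uterus and 10 lower, against 4.57% higher and 6.06% lower among 10690 genes. Without allowance for the median gene the keratin counts were 4 higher and 7 lower, and the share of all called genes that was higher went from 43.0% to 83.0%. No basal keratin was called. Krt5 differed by -0.75 on the log2 scale and Krt15 by 0.36. Krt14, at -0.46, read at the top of the scale on mock ovary and just under it on SHT uterus. Neither the size nor the direction of its difference can be told from these readings.

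Of 9 suprabasal keratins above the floor, 5 were called lower on the array labelled SHT uterus and 0 higher. Among 10690 genes the shares were 6.06% lower and 4.57% higher. Krt76 was at least 69.0-fold lower, Krt78 35.9-fold, Krt1 19.6-fold and Krt9 at least 15.7-fold. Krt71, of the root sheath, was 5.67-fold lower, and the hair keratins Krt84 and Krt81 at least 3.79-fold and 2.84-fold. Krt10, the partner of Krt1, differed by -0.63 on the log2 scale and was not called. Its reading on mock ovary was at the top of the scale, so that size is a lower bound. Krt13, Krt16 and Krt17 were called lower by 2.18-fold, 2.18-fold and 2.27-fold, and none of the 3 was called as deposited or after quantile normalization. Krt20 was at least 12.2-fold and Krt19 2.43-fold higher, and Krt4 was 1.99-fold higher, just under the threshold.

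**Figure D4:**
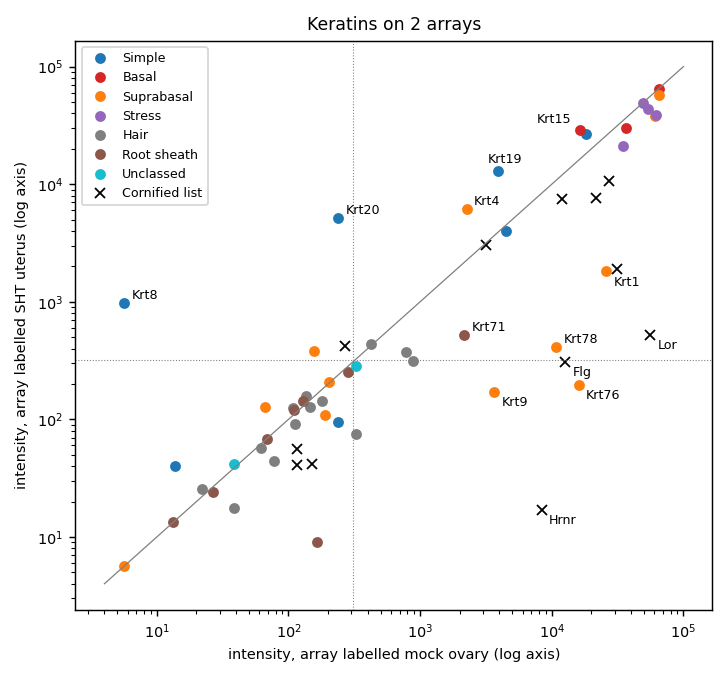
Intensity of each keratin (coloured by class) and of the cornified list (crosses) on the array labelled mock ovary (x axis) and SHT uterus (y axis), both log axes, with equality as a diagonal and each array's background limit dotted. Basal and stress keratins lie near the diagonal at the top right; Krt1, Krt76, Krt78 and Krt9 lie below it with Lor, Flg and Hrnr, and Krt20, Krt8, Krt19 and Krt4 lie above; Krt8, below 0 on mock ovary, is drawn at the lowest value used.

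Genes that act with keratins were read in the same way, from lists chosen with earlier results of these data known. The 12 genes that anchor keratin filaments at desmosomes and hemidesmosomes were all above background on mock ovary and SHT uterus, 10 on SHT brain, 11 on mock uterus and 3 on each of mock brain and SHT ovary. Dsp, the desmosomal plaque protein that binds keratin, read 65580 on mock ovary, at the top of the scale, 41552 on SHT uterus, 8681 on SHT brain and 3675 on mock uterus, and 310 and 269 on mock brain and SHT ovary. Dsp was thus also above background on the SHT brain and mock uterus arrays, where Krt5 was not. Pkp1, another desmosomal gene, read 23307 on mock ovary and 11396 on SHT uterus, and 544, 253, 477 and 359 on mock brain, SHT brain, SHT ovary and mock uterus, so it was not brighter on the last of these than on mock brain. Col17a1, a hemidesmosomal collagen of basal cells, read 9231 on mock ovary, 6844 on SHT uterus and at most 109 elsewhere, like Krt5. Pkp3 read 28959 and 12785 on the bright arrays, and Ppl 17562 and 9635. Of anchors above the floor, 7 of 11 were called higher and 2 lower in brain, 0 of 12 and 10 in ovary and 9 of 12 and 1 in uterus. All genes gave 22.9% and 23.3%, 23.0% and 23.6%, and 12.6% and 9.04%. Over the 12 anchors the SHT minus mock values had median log2 differences of 2.02, -4.87 and 2.77.

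Of 12 transcription factors of epithelium and hair measured, 9 were above background on mock ovary and 10 on SHT uterus, against 3 to 7 elsewhere. Trp63, the regulator of basal squamous identity, read 6690 on mock ovary, 8031 on SHT uterus, and 55.4, 175, 42.2 and 245 on mock brain, SHT brain, SHT ovary and mock uterus. Its bright arrays are those of Krt5 and Krt14. Elf3, a factor of epithelial differentiation, was brightest on SHT brain, as Krt7 and Krt8 were, with 11495 there, 5968 on SHT uterus, 1144 on mock ovary, 679 on mock uterus, and 29.7 and 25.7 on mock brain and SHT ovary. Klf4 read 15040 on mock ovary, 10211 on SHT uterus and 5997 on SHT brain, and Ehf 8161, 9174 and 1897. Ovol2 ran otherwise, with 2305 on SHT brain, 1018 on SHT ovary, 780 on mock brain, 333 on SHT uterus, 295 on mock ovary and 132 on mock uterus. Of factors above the floor, 5 of 7 were called higher and 0 lower in brain, 1 of 8 and 7 in ovary and 9 of 9 and 0 in uterus, beside the same shares over all genes as for the anchors.

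Part of the cornified list, of proteins that bundle keratins or build the cornified envelope, split the 2 keratin-rich arrays as widely as Krt1 did. Lor, the main envelope protein of epidermis, read 55805 on mock ovary and 522 on SHT uterus, with 1817, 361, 2082 and 303 on mock brain, SHT brain, SHT ovary and mock uterus. Flg, which aggregates keratin filaments, read 12645 on mock ovary and 308 on SHT uterus, the latter within background, and Hrnr 8378 on mock ovary and within background on the other 5 arrays. Lor was 146-fold lower on SHT uterus, Flg at least 54.3-fold, Hrnr at least 36.0-fold and Rptn 22.4-fold. Ivl, the envelope precursor of stratified epithelia in general, read 3138 and 3044 and was not called. Cnfn and Krtdap, read at 27258 and 21720 on mock ovary, were 3.47-fold and 3.88-fold lower on SHT uterus. In that pair 7 of the 9 cornified genes above the floor were called lower and 0 higher, against 6.06% and 4.57% among 10690 genes. The median log2 difference was -1.96 over all 12, against -0.12 over all genes.

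Other intermediate filament genes did not follow the keratins as a group. The neurofilament gene Nefm read 21929 on mock brain and 27937 on SHT ovary, 541 and 970 on mock ovary and SHT uterus, and 0.65 and 2.01 on SHT brain and mock uterus. Nefl and Nefh were also brightest on mock brain and SHT ovary, at 7636 and 7462 and at 4250 and 4402. Those are the arrays with the fewest simple keratins above background, 1 each. Des, the muscle filament protein, read 13588 on mock ovary, 7001 on SHT uterus, 2175 on SHT brain, 711 on mock uterus, and 131 and 110 on mock brain and SHT ovary. Of those above the floor, 4 of 7 were called higher and 2 lower in brain, 3 of 10 and 6 in ovary and 3 of 8 and 1 in uterus. The shares over all genes, higher and lower, were 22.9% and 23.3%, 23.0% and 23.6%, and 12.6% and 9.04%.

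Mouse keratin genes lie in a type I cluster on chromosome 11 and a type II cluster, with Krt18 at its end, on chromosome 15. The order of neighbours was taken from RefSeq on GRCm38.p6, since the array's own coordinates were not used here. On chromosome 11, 8 of 27 measured keratins were above background on both the mock ovary and the SHT uterus array, and on chromosome 15, 10 of 22. They were not spread evenly. On chromosome 11 the neighbours Krt13, Krt15, Krt19, Krt9, Krt14, Krt16 and Krt17 form a run in which 6 of 7 were above background on both, and Krt9 on mock ovary alone of these 2. Just before it, 9 hair keratins from Krt39 to Krt36 lie together, and Krt34 was the 1 above background anywhere. On chromosome 15, Krt6b, Krt6a and Krt5 lie side by side and were bright on the same arrays. Nearby order did not fix the pattern: Krt76, Krt4 and Krt78 lie within 4 consecutive genes, and of these Krt4 alone was brighter on SHT uterus. Krt8 and Krt18, adjacent at the end of the cluster, had the unlike readings described above.

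**Figure D5:**
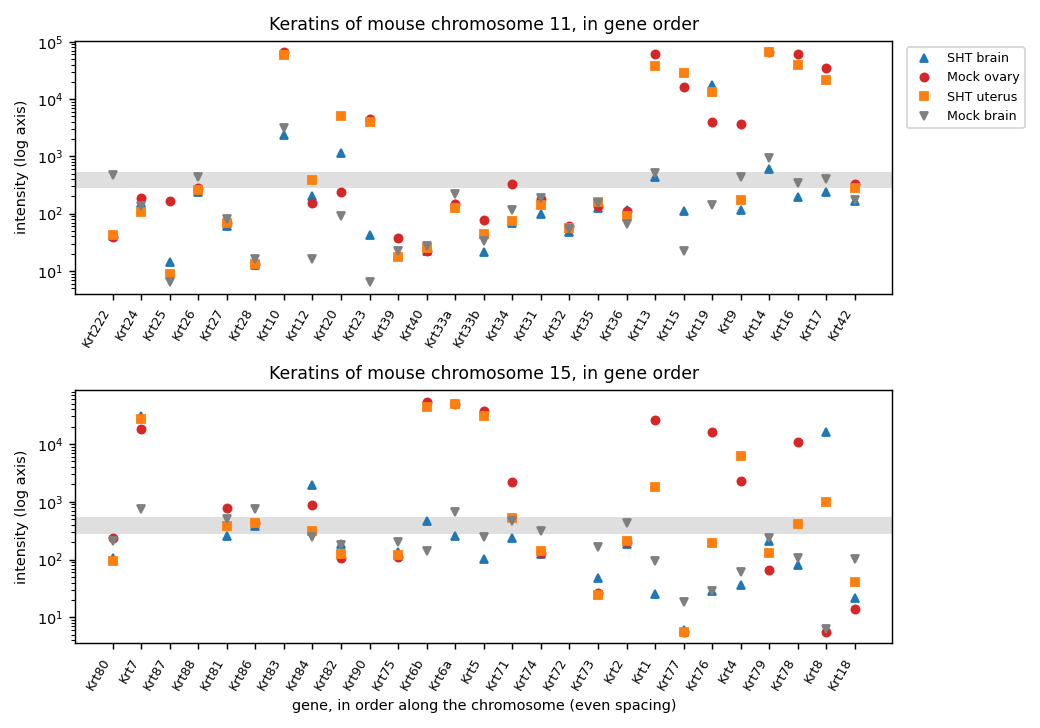
Intensity (log axis) of the keratins in gene order along mouse chromosomes 11 and 15 (x axis, even spacing), on the arrays labelled SHT brain, mock ovary, SHT uterus and mock brain; genes without points were not among the members. The grey band spans the background limits, 275 to 542, of the 6 arrays. Krt13 to Krt17 and Krt6b to Krt5 form bright runs on mock ovary and SHT uterus, and the hair keratins from Krt39 to Krt36 stay within or under the band.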

How the data were processed

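Cy5-labelled amplified RNA of 6 samples was measured on 1-colour arrays, per the labels. The deposited table holds processed linear intensity for 26423 probes, and limma is named in the submitters' processing notes with no version or role. The labels do not state the background correction, the scaling or any filter on spots. Array medians ran from 179 to 224. Each array had 20 to 30 probes at or below 0, and at most 5 read 65000 or more, taken as the top of the scale. The number of arrays limits the precision.

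Values were raised to the 5th percentile of positive values per array, put on the log2 scale and compared within the pairs, relative to the pair's median gene over genes above the floor (-0.04 in brain, 0.14 in ovary and 0.04 in uterus). Probe names came from the platform annotation, where 20377 probes had 1 symbol and 6046 none. All 49 keratin symbols are current in RefSeq. The average SHT effect was fitted with limma 3.58.1 in R 4.3.3 (lmFit, eBayes with trend, tissue block, two-sided, Benjamini-Hochberg over all genes tested). Both calculations were tested on simulated data. Every keratin of the simple, basal, suprabasal and stress classes above background on any array was named, with the leading hair and root sheath ones and up to 4 genes of each other list by their range. Pkp1, Ovol2, Lor, Flg, Ivl, Krtap13, Krt34, Krt42, Krt222 and the hair markers were named outside that rule, after their values were seen. Members, classes and lists were chosen with earlier results of these data known.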

Additional observations from a re-analysis of the deposited data

Results flagged for a closer look

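Keratins called in opposite directions in 2 labelled tissues were set apart, with the difference between the SHT effects on the log2 scale. With 1 array per group, these differences were not tested. The values use the readings themselves, dim ones included, so their sizes are not bounds. Uterus minus ovary, the difference was 18.05 for Krt6b, 17.96 for Krt15, 15.89 for Krt16, 15.66 for Krt5, 14.55 for Krt1, 14.38 for Krt6a, 13.92 for Krt13, 13.23 for Krt4, 13.07 for Krt14 and 12.86 for Krt17. It was 8.92 for Krt10, 8.10 for Krt7, 6.33 for Krt19 and 3.90 for Krt71. Ovary minus brain, it was -12.14 for Krt19, -10.74 for Krt6b, -10.25 for Krt7 and -5.25 for Krt84. Uterus minus brain, it was 9.09 for Krt6a and -12.73 for Krt8, of which the second rests on a reading below 0. All 8 squamous markers were above background on mock ovary and SHT uterus, and all 9 ovarian markers on SHT brain and mock uterus. Their part in these differences was not tested.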

How the results depend on the processing

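The differences of 28 keratins, those above background on any array or called in any pair, were repeated in the 4 pairs under 7 alternatives. Calls were kept in 384 repeats, lost in 22 and reversed in none, and differences not called gained a call in 29 and stayed uncalled in 349. Krt71 in uterus was not called after quantile normalization (0.97), nor Krt81 in ovary as deposited (-0.97). Without the level floor the counts were 10 higher and 10 lower in brain, 5 higher in ovary, 2 lower in uterus, and 5 higher and 16 lower on SHT uterus against mock ovary. These include probes within background. At 3-fold, 1 was lower in brain and 0 lower in uterus, with 1 higher and 6 lower between the 2 keratin-rich arrays. As deposited, 4 were higher in that pair, where 1612 genes were called higher and 330 lower in place of 488 and 648. With a floor on the brighter array, chosen after seeing the data, 1 keratin (Krt222) was higher in ovary. Centring changed no count, since differences are relative to the median gene. With the background limit at the 90th percentile, 15, 19, 15 and 18 keratins were above background on mock brain, SHT brain, SHT ovary and mock uterus, and at the 99th percentile 2 and 3 on mock brain and SHT ovary. Counts on mock ovary and SHT uterus stayed within 1.5 times. Without the floor, genes called higher went from 2458 to 3846 in brain, from 1355 to 2102 in uterus and from 488 to 987 between the keratin-rich arrays, and genes called lower in uterus from 973 to 1633. At 3-fold they were 1515 higher and 1617 lower in brain, 1661 and 1662 in ovary, 786 and 492 in uterus, and 162 and 282 between the keratin-rich arrays. The average SHT effect called 0 genes and 0 keratins in all settings, and 4 genes had an unadjusted p under 0.05 as reported. That count was 462, with 5 keratins, without the arrays labelled ovary, 127 without those labelled brain and 11 without the floor. Current symbols added Krt88 and Krt90, within background on every array. Each group had 1 array, so there were no replicate numbers to pair. The average SHT effect was paired by labelled tissue, and without that block it called 0 genes, with 3 at an unadjusted p under 0.05.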
